A study of Mus musculus with 6 samples.

Results

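Genes of sterol and fatty acid synthesis were followed in 3 mouse endothelial cell lines that differ, by their labels, in the cadherin they express. The 32 genes were chosen by symbol, as enzymes of cholesterol and fatty acid synthesis together with the regulators of both pathways. A gene was measured where a probe set was annotated to that symbol alone, and the brighter probe set was taken where there were several. This held for 31 of the 32 genes, out of 19936 genes measured in all. Acat2, the cytosolic thiolase at the head of the sterol pathway, was not analysed here.

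The lines were derived from embryonic stem cells and are labelled VE+N (expressing both VE-cadherin and N-cadherin), VE (expressing VE-cadherin) and N (expressing N-cadherin). All were treated alike: 50000 cells per square centimetre were seeded, kept for 72 h in medium with serum, heparin and endothelial growth supplement, and then held for 18 to 20 h in a serum-free medium with 1% albumin. RNA was measured on whole-transcript arrays, 2 for each line and 6 in all, and values are log2 signals, in which 1 unit is a doubling. Each cadherin state is a single line, how each line came to express its cadherin is not given in the labels, and so a difference between cadherin states and any other difference between the lines cannot be told apart. The arrays stand for separate RNA extracts titled as biological replicates, but whether these came from separate cultures is not stated in the sources used here, and the p-values measure the spread between them.

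Precision is set by the number of arrays, since arrays have no read depth. On the 6 arrays the median signal over probe sets was 4.85 to 4.91. Cdh2, the N-cadherin gene, had a mean signal of 6.69 ± 0.0105 (VE+N), 5.86 ± 0.0933 (VE) and 7.67 ± 0.0120 (N) (SD, n = 2 each), lowest in the line labelled as expressing VE-cadherin alone. For Cdh5, the VE-cadherin gene, the means were 7.10 ± 0.0832, 6.94 ± 0.156 and 7.28 ± 0.0254 in the same order of lines, highest in the line labelled N, and no difference passed the test. Its probe set thus does not follow the labels, and whether its probes lie in a part of the gene that was altered in any line is not given in the sources used here. Each line is therefore named by its label, and all directions given depend on the labels being right. All 10 endothelial markers examined, Pecam1 and Kdr among them, lay above the median gene in each of the 3 lines.

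Cells make cholesterol from acetyl-CoA through mevalonate, isoprenoids, squalene and lanosterol, and they make fatty acids from the same acetyl-CoA. Both pathways are driven by the sterol regulatory element binding proteins (SREBPs), which are held in the endoplasmic reticulum by the INSIG proteins when sterols are plentiful and are escorted by SCAP to the Golgi, cut and sent to the nucleus when sterols run low. SREBP-2, from Srebf2, acts mainly on sterol genes, and SREBP-1, from Srebf1, mainly on fatty acid genes. In endothelial cells membrane cholesterol is known for its part in caveolae and in receptor signalling.

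Most of the measured genes were lowest in the VE+N-labelled line, whose mean was the lowest of the 3 in 26 of 31 genes and in 31.8% of all genes. Against the N-labelled line 17 of 31 fell and 1, Scap, rose, beside 8.91% of all genes lower and 10.2% higher (limma, adjusted p below 0.05, which is the call used below). Their median log2 difference was −0.58, against −0.0044 over all genes. The shares of all genes given here and below include dim genes. Of the members only Lss, in the VE+N-labelled line, lay below the line's median gene. Without the dimmest 50% of genes 22 of 31 members fell and 1 rose for VE+N minus N. In that fit 4216 of 9968 genes were called in either direction, against 3802 of 19936 with all genes. Markers of other cell types fell for VE+N minus N, 5 of 8 mural and 4 of 8 fibroblast and mesenchymal, beside 8.91% of all genes. Of 7 haematopoietic markers only 1, Cd68, fell. The part of these markers in the count of members was not tested. Against the VE-labelled line 13 of 31 fell and 0 rose, beside 5.84% of all genes lower and 4.29% higher, with a median of −0.36, against 0.03 over all genes. At an unadjusted p below 0.05 limma gave 17 lower and 0 higher there, beside 10.6% and 12.6% of all genes. The methods' analysis of variance gave 16 lower and 1 higher, beside 9.27% and 10.8%. For VE+N minus VE without the dimmest 50% of genes, 17 of 31 members fell and 0 rose (limma, adjusted). In that fit 2597 of 9968 genes were called in either direction. All 9 measured cell cycle markers and all 8 fibroblast and mesenchymal markers also fell for VE+N minus VE, and their part in this count was not tested. In bulk RNA a different share of cells of a type and a different amount of RNA per cell cannot be told apart.

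Fewer of these genes were called between the VE-labelled and N-labelled lines. Of 31 genes 6 fell and 1, Sqle, rose, beside 6.99% of all genes lower and 8.46% higher, with a median of −0.01, against −0.02 over all genes. Without the dimmest 50% of genes 7 of 31 members fell and 3 rose. In that fit 3530 of 9968 genes were called in either direction, so no excess of called members is read from these counts. With each array centred on its median, the median over all genes for VE minus N was −0.13 and that of the members −0.12. Centring shifts every gene of an array by the same amount, so the equal shift of both medians was fixed in advance. Of all genes called for VE minus N 54.8% were higher, and 34.9% after this centring, and for VE+N minus VE 42.3% were higher, and 60.8% after it. Over the 3 lines together 21 of 31 genes differed by the moderated F test, beside 22.4% of all genes. Both VE+N-labelled arrays lay below the other 4 arrays in 22 of 31 genes, and in 12.4% of all genes. Both N-labelled arrays lay above the other 4 in 11 of 31 genes, and in 18.1% of all genes. The 3 comparisons share lines, so their counts are not independent of each other.

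**Figure D1:**
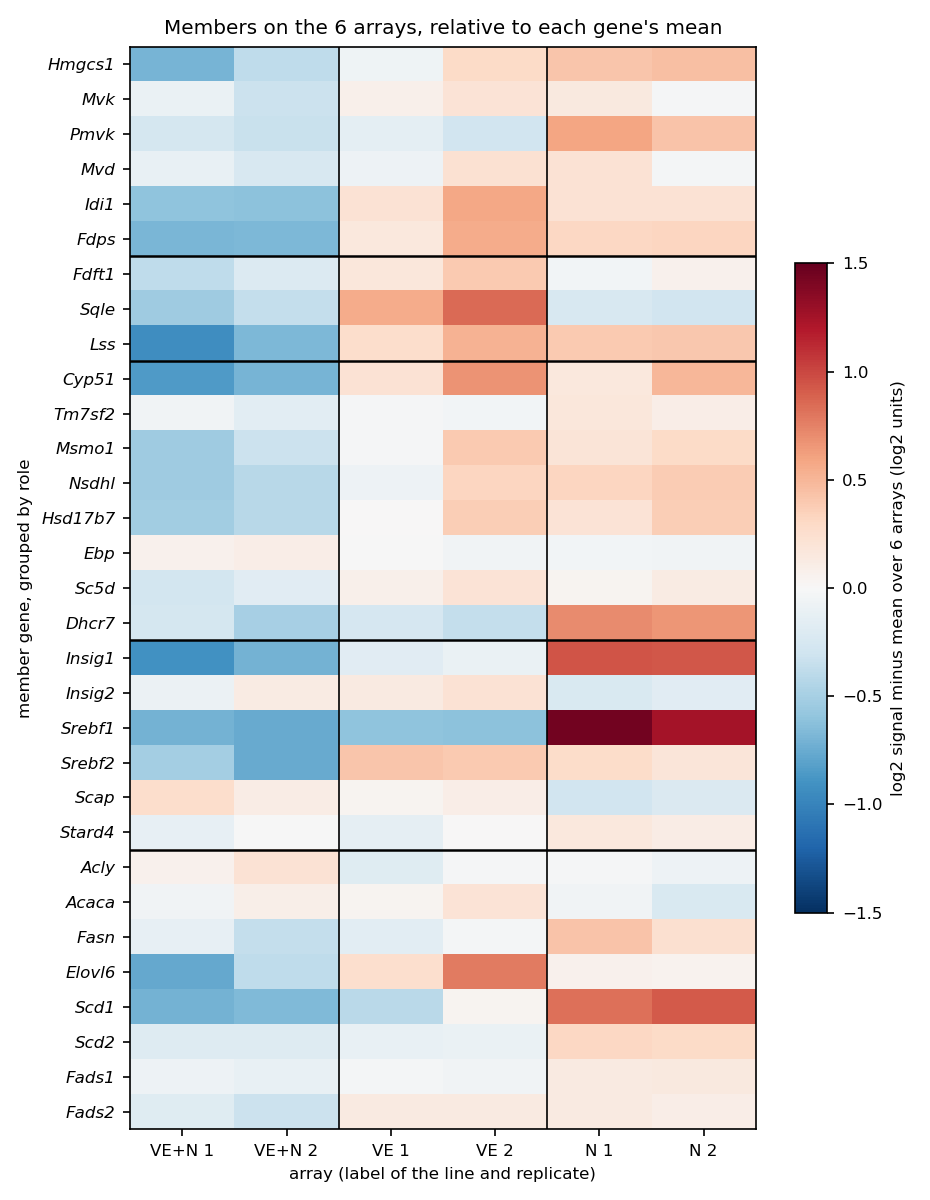
The heat map gives the log2 signal of the 31 measured genes on each array minus the gene's mean over the 6 arrays, with arrays in columns (2 for each labelled line), genes in rows and black lines between groups of genes by role (mevalonate and isoprenoid steps, squalene and lanosterol steps, lanosterol to cholesterol, regulators and transport, fatty acids). Both VE+N columns are below the other 4 in 22 genes, while Srebf1, Insig1, Dhcr7, Pmvk and Scd1 are high in the N columns.

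The number of calls depended on the test and on single arrays. By the analysis of variance that the methods name, after Benjamini-Hochberg adjustment and with each gene's own variance on 3 degrees of freedom, 9 genes fell and 0 rose in the VE+N-labelled against the N-labelled line beside 4.55% of all genes lower, and 0 fell and 0 rose against the VE-labelled line, beside 0.968% of all genes lower. At an unadjusted p below 0.05 that analysis gave 20 lower and 2 higher in the VE+N-labelled against the N-labelled line, beside 12.8% and 13.1% of all genes. At the methods' own threshold, an unadjusted p below 0.05 and a change of over 2-fold, 6 members fell for VE+N minus N (Lss, Cyp51, Dhcr7, Insig1, Srebf1 and Scd1), beside 2.14% of all genes. For VE minus N 3 fell (Insig1, Srebf1 and Scd1), beside 1.22%, and for VE+N minus VE 7 fell (Idi1, Fdps, Sqle, Lss, Cyp51, Srebf2 and Elovl6), beside 1.94%, while 0 members rose in any of the 3 comparisons. The count of 13 against the VE-labelled line was 6 when VE replicate 2 was left out and 8 when VE+N replicate 1 was.

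Among the regulators, both SREBP genes and Insig1 fell and Scap rose in the VE+N-labelled line against the N-labelled line, and the lines were ordered differently from gene to gene. Insig1, whose product retains SREBPs and whose own gene is an SREBP target, read 8.69 and 8.89 on the VE+N-labelled arrays, 9.43 and 9.50 on the VE-labelled arrays and 10.54 and 10.53 on the N-labelled arrays. The 3 lines did not overlap, and the N-labelled line was highest. Insig1 fell by 1.74 ± 0.107 (SE) log2 units in the VE+N-labelled line against the N-labelled line (limma adjusted p = 2.03e-05), by 1.07 ± 0.107 in the VE-labelled line against the N-labelled line (adjusted p = 0.000374) and by 0.67 ± 0.107 in the VE+N-labelled line against the VE-labelled line (adjusted p = 0.00633). The last of these calls was lost without VE replicate 2, with adjusted p = 0.0635.

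Insig2, the paralog that is not a strong SREBP target, read 8.37 and 8.58 on the VE+N-labelled, 8.59 and 8.68 on the VE-labelled and 8.23 and 8.29 on the N-labelled arrays. The N-labelled arrays were lowest, and none of its differences was called (adjusted p = 0.235 for VE+N minus N, 0.0576 for VE minus N and 0.46 for VE+N minus VE). Its difference of 0.38 ± 0.110 for VE minus N was called under 9 of 17 alternatives.

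Srebf1 showed the largest difference of all the measured members. It read 6.49 and 6.44 on the VE+N-labelled arrays, 6.60 and 6.58 on the VE-labelled arrays and 8.65 and 8.45 on the N-labelled arrays. Both VE-cadherin-labelled lines lay about 2 log2 units below the N-labelled line, with ratios to it of 0.236 (VE+N) and 0.258 (VE). The log2 differences were −2.08 ± 0.107 for VE+N minus N (adjusted p = 7.41e-06) and −1.95 ± 0.107 for VE minus N (adjusted p = 1.83e-05), while VE+N minus VE, at −0.13 ± 0.107, was not called (adjusted p = 0.552, 95% interval −0.37 to 0.12).

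Srebf2 gave another order. It read 8.57 and 8.32 on the VE+N-labelled arrays, 9.50 and 9.47 on the VE-labelled arrays and 9.35 and 9.25 on the N-labelled arrays, so that only the VE+N-labelled line stood low. It fell by 0.86 ± 0.115 against the N-labelled line (adjusted p = 0.00134) and by 1.04 ± 0.115 against the VE-labelled line (adjusted p = 0.00108). The VE minus N difference of 0.18 ± 0.115 was not called (adjusted p = 0.394).

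Scap, the escort protein of the SREBPs, was the only member that was called higher in the VE+N-labelled line. Its signals were 8.48 and 8.33 on the VE+N-labelled, 8.26 and 8.32 on the VE-labelled and 7.93 and 7.998 on the N-labelled arrays, with a difference of 0.44 ± 0.103 for VE+N minus N (adjusted p = 0.0202). That call was lost without N replicate 1, N replicate 2 or VE+N replicate 1 and with the methods' analysis of variance, with adjusted p between 0.0643 and 0.14. The VE minus N difference was 0.32 ± 0.103 (adjusted p = 0.0768). Stard4, which carries sterols between membranes, read 8.79 and 8.90 on the VE+N-labelled, 8.78 and 8.92 on the VE-labelled and 9.07 and 9.03 on the N-labelled arrays, and none of its differences was called (adjusted p = 0.252, 0.277 and above 0.99 for VE+N minus VE).

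**Figure D2:**
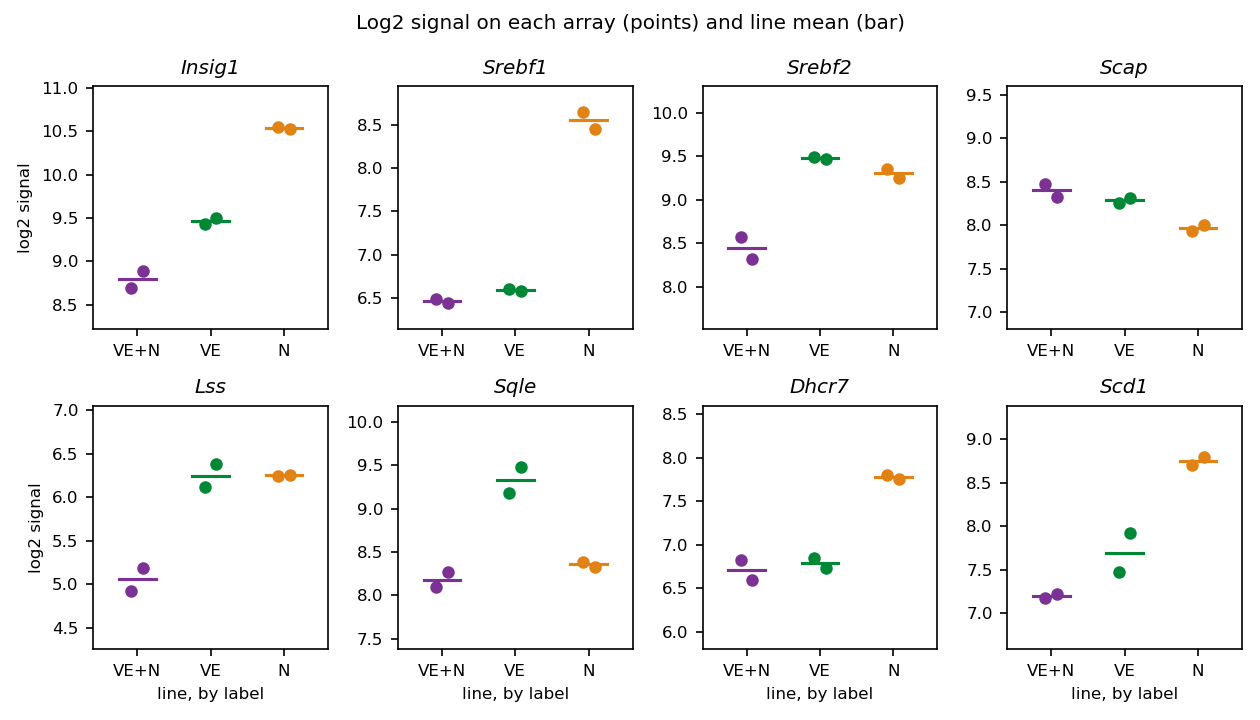
Log2 signal of 8 genes on each of the 6 arrays (points) with the mean of each labelled line (bar). Every panel spans the same range of 2.8 log2 units, and signals are not comparable between genes. Srebf1 and Dhcr7 are high in the N-labelled line only, Srebf2 and Lss are low in the VE+N-labelled line only, Sqle is high in the VE-labelled line, and for Insig1 and Scd1 no arrays of different lines overlap.

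Promoter sequences of the measured genes were examined, whether or not a gene was called. The motif counts therefore cannot bear on the low signals in the VE+N-labelled line. RefSeq's table of promoters (build GRCm38.p6, 250 bases before to 50 after each start) held 24 of the 31 measured genes, with 32 starts. Of the 24 genes, 20 had CCAAT (the NF-Y box) on either strand, against 41.8% of 15013 measured protein-coding genes in the table. For GGGCGG, the Sp1 box, the count was also 20 of 24, against 53.7%. The E box CACGTG was found in 5 of 24, against 9.57%, and the sterol regulatory element form TCACNCCAC in 1 of 24, Hmgcs1, against 1.39%. Other forms of the sterol regulatory element were not searched, a match is not a site shown to be bound, and genes with several starts counted as holding a motif if any start did. The genes with the largest falls in the VE+N-labelled against the N-labelled line were Srebf1, Insig1, Scd1 and Lss, and the promoters of those in the table are shown, with that of Hmgcs1 for its sterol regulatory element form. They run 5′ to 3′ on the gene's strand, and capitals mark the matches to the 4 motifs on either strand, none of which overlap.
Insig1, chr5:28071162-28071461, + strand: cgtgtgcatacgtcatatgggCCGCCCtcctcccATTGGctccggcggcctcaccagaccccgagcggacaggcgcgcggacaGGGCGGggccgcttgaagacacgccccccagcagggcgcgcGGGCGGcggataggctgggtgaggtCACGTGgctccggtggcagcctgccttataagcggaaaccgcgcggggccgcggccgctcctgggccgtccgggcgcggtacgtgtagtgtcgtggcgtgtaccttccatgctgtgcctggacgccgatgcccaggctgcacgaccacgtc
Lss, chr10:76531355-76531654, + strand: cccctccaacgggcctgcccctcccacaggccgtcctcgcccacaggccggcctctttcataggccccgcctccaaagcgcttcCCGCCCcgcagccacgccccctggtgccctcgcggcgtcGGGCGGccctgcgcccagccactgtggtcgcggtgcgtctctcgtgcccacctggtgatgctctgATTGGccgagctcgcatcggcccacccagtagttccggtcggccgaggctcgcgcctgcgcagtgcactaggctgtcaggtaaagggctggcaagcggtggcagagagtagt
Hmgcs1, chr13:119690101-119690400, + strand: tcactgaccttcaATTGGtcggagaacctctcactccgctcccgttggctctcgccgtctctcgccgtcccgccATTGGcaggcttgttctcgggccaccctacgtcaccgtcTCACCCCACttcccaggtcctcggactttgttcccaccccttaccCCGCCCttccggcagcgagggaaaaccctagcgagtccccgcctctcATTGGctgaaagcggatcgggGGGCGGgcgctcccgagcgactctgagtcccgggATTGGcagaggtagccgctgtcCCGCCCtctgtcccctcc
Srebf1, the start farthest upstream, chr11:60222532-60222831, - strand: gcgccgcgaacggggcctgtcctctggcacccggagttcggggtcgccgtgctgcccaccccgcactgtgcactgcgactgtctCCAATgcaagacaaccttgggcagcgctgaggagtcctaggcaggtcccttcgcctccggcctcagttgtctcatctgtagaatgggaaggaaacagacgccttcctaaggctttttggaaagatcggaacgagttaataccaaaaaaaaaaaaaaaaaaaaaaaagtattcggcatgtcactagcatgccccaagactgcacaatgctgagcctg
Srebf1, the middle start, chr11:60220578-60220877, - strand: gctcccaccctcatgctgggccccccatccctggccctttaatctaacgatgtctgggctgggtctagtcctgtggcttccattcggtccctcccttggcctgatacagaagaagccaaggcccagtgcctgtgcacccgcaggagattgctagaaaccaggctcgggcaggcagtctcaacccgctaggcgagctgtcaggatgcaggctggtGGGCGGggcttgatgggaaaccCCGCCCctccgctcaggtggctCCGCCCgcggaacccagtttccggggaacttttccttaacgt
Srebf1, the start farthest downstream, chr11:60210422-60210721, - strand: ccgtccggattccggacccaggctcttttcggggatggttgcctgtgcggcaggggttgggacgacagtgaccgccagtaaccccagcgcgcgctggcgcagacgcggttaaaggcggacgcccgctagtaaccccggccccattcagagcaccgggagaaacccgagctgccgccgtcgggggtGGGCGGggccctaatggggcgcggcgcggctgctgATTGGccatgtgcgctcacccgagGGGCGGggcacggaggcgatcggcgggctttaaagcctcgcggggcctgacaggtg

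The Insig1 window holds 1 inverted CCAAT, 3 Sp1 boxes and 1 E box, the Lss window 1 inverted CCAAT and 2 Sp1 boxes, and the Hmgcs1 window 4 inverted CCAAT, 3 Sp1 boxes and the sterol regulatory element form. The 3 Srebf1 starts differ in what they hold: the upstream one has 1 CCAAT, the middle one 3 Sp1 boxes and the downstream one 1 inverted CCAAT and 2 Sp1 boxes. The array has 1 Srebf1 probe set, so the difference between lines cannot be assigned to a start.

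The early steps of the pathway, from acetyl-CoA units to farnesyl diphosphate, gave 4 of 6 measured genes lower in the VE+N-labelled against the N-labelled line and 3 of 6 lower against the VE-labelled line. Of all genes 8.91% and 5.84% were lower in these comparisons. Hmgcs1, the HMG-CoA synthase, read 8.19 and 8.51 on the VE+N-labelled, 8.82 and 9.18 on the VE-labelled and 9.30 and 9.34 on the N-labelled arrays. The lines did not overlap, and the differences were −0.97 ± 0.153 for VE+N minus N (adjusted p = 0.00311) and −0.65 ± 0.153 for VE+N minus VE (adjusted p = 0.0335). The second was no longer called with the arrays centred on their medians, without VE replicate 2 or without VE+N replicate 1, with array weights or with the methods' analysis of variance.

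Idi1, the isomerase that makes the building blocks of isoprenoids interchangeable, read 7.80 and 7.79 on the VE+N-labelled, 8.62 and 8.98 on the VE-labelled and 8.62 and 8.63 on the N-labelled arrays. The VE-labelled and N-labelled arrays all stood above the VE+N-labelled ones, with differences of −0.83 ± 0.130 for VE+N minus N (adjusted p = 0.00301) and −1.01 ± 0.130 for VE+N minus VE (adjusted p = 0.00218). A second probe set of Idi1 read 7.70 and 7.65 on the VE+N-labelled, 8.49 and 8.84 on the VE-labelled and 8.52 and 8.51 on the N-labelled arrays, the same pattern. Fdps, the farnesyl diphosphate synthase, read 7.48 and 7.49, 8.31 and 8.72 and 8.48 and 8.49 in that order of lines, with differences of −0.996 ± 0.138 for VE+N minus N (adjusted p = 0.00158) and −1.03 ± 0.138 for VE+N minus VE (adjusted p = 0.00261).

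Pmvk, the phosphomevalonate kinase, had another order. It read 6.67 and 6.60 on the VE+N-labelled, 6.78 and 6.64 on the VE-labelled and 7.52 and 7.36 on the N-labelled arrays, with the N-labelled line alone high. It fell by 0.80 ± 0.109 in the VE+N-labelled (adjusted p = 0.00143) and by 0.72 ± 0.109 in the VE-labelled line (adjusted p = 0.0031), each against the N-labelled line. Mvk and Mvd, the mevalonate kinase and the decarboxylase, were called in no comparison, with differences between −0.35 ± 0.121 (Mvk, VE+N minus VE) and 0.08 ± 0.121 (Mvk, VE minus N).

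The next enzymes join isoprenoids into squalene and close the ring to lanosterol. All 3 were lower for VE+N minus VE, beside 5.84% of all genes. Sqle, squalene epoxidase, a rate-limiting step of the pathway, read 8.09 and 8.27 on the VE+N-labelled, 9.18 and 9.47 on the VE-labelled and 8.39 and 8.33 on the N-labelled arrays. Only the VE-labelled line stood high: the differences were 0.97 ± 0.127 for VE minus N (adjusted p = 0.00154) and −1.15 ± 0.127 for VE+N minus VE (adjusted p = 0.00106), and −0.18 ± 0.127 for VE+N minus N was not called (adjusted p = 0.412, 95% interval −0.47 to 0.11). No other member was called higher for VE minus N. The cell cycle markers were highest in the same line, and their part in the Sqle difference was not tested.

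Lss, the lanosterol synthase, read 4.93 and 5.18 on the VE+N-labelled, 6.12 and 6.38 on the VE-labelled and 6.25 and 6.26 on the N-labelled arrays. The VE-labelled and N-labelled arrays overlapped, and the VE+N-labelled line alone was low, with differences of −1.20 ± 0.130 for VE+N minus N (adjusted p = 0.000434) and −1.20 ± 0.130 for VE+N minus VE (adjusted p = 0.000979). The VE+N-labelled mean of Lss, 5.05 ± 0.180 (SD, n = 2), lay under that line's median gene, which no other member did in any line. Fdft1, the squalene synthase, read 9.25 and 9.42 on the VE+N-labelled, 9.79 and 10.01 on the VE-labelled and 9.58 and 9.69 on the N-labelled arrays, and its difference of −0.57 ± 0.120 for VE+N minus VE was called (adjusted p = 0.0217). That call was lost in 4 of 17 alternatives, among them leaving out either VE-labelled array.

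Of the 8 enzymes that turn lanosterol into cholesterol, 5 fell in the VE+N-labelled line against the N-labelled line and 4 against the VE-labelled line. The shares of all genes lower were 8.91% and 5.84%. Cyp51, the lanosterol demethylase, read 5.98 and 6.13 on the VE+N-labelled, 7.05 and 7.51 on the VE-labelled and 6.996 and 7.33 on the N-labelled arrays. The VE-labelled and N-labelled arrays overlapped, both far above the VE+N-labelled ones, with differences of −1.11 ± 0.175 for VE+N minus N (adjusted p = 0.00319) and −1.22 ± 0.175 for VE+N minus VE (adjusted p = 0.00365).

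Msmo1, Nsdhl and Hsd17b7 encode the demethylation steps that follow, and all 3 were lower in the VE+N-labelled line than in both others. Msmo1 read 9.78 and 9.99 on the VE+N-labelled, 10.29 and 10.70 on the VE-labelled and 10.50 and 10.60 on the N-labelled arrays, and fell by 0.67 ± 0.151 against the N-labelled (adjusted p = 0.0172) and 0.62 ± 0.151 against the VE-labelled line (adjusted p = 0.0398). The Nsdhl signals were 6.86 and 6.97, 7.31 and 7.71 and 7.70 and 7.77 in the same order of lines, with differences of −0.83 ± 0.140 for VE+N minus N (adjusted p = 0.00457) and −0.60 ± 0.140 for VE+N minus VE (adjusted p = 0.033). Hsd17b7 read 7.09 and 7.19 on the VE+N-labelled, 7.62 and 7.98 on the VE-labelled and 7.81 and 7.98 on the N-labelled arrays, with differences of −0.76 ± 0.138 for VE+N minus N (adjusted p = 0.0065) and −0.66 ± 0.138 for VE+N minus VE (adjusted p = 0.0206). In each of the 3 genes VE replicate 2 was above VE replicate 1, and the calls against the VE-labelled line were lost without VE replicate 2 and without either VE+N-labelled array. The Msmo1 call against the N-labelled line was lost without either N-labelled array or without VE+N replicate 1.

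Dhcr7, which makes cholesterol from its last 7-dehydro precursor, was high only in the N-labelled line. It read 6.83 and 6.59 on the VE+N-labelled, 6.84 and 6.73 on the VE-labelled and 7.81 and 7.76 on the N-labelled arrays, and fell by 1.07 ± 0.115 (VE+N, adjusted p = 0.000402) and 0.99 ± 0.115 (VE, adjusted p = 0.000788) against it. VE+N minus VE was −0.08 ± 0.115 (adjusted p = 0.754, 95% interval −0.35 to 0.19). Tm7sf2, Ebp and Sc5d, a sterol reductase, isomerase and desaturase, were called in no comparison, with differences between −0.36 ± 0.104 (Sc5d, VE+N minus VE) and 0.13 ± 0.0943 (Ebp, VE+N minus N). Sc5d and Tm7sf2 had both VE+N-labelled arrays below the other 4.

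Fatty acid synthesis did not move as a block. Of 8 measured genes 4 fell in the VE+N-labelled against the N-labelled line, beside 8.91% of all genes. For VE minus N 2 fell, beside 6.99%, and for VE+N minus VE 1 fell, beside 5.84%. The enzymes that supply and build the chain differed little or in part. Acly and Acaca, which make acetyl-CoA and malonyl-CoA in the cytosol, were called in no comparison, with differences between −0.10 ± 0.117 (Acaca, VE+N minus VE) and 0.26 ± 0.117 (Acaca, VE minus N). Fasn, the fatty acid synthase, read 8.47 and 8.24 on the VE+N-labelled, 8.44 and 8.57 on the VE-labelled and 9.03 and 8.85 on the N-labelled arrays. The N-labelled arrays were highest, and the fall of 0.58 ± 0.123 in the VE+N-labelled against the N-labelled line was called (adjusted p = 0.013), while the VE minus N difference of −0.43 ± 0.123 was not (adjusted p = 0.0538). The Fasn call was lost without N replicate 1, without VE+N replicate 2 and with the methods' analysis of variance.

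Scd1, the stearoyl-CoA desaturase that makes oleate, showed the largest fatty acid difference. Its signals were 7.17 and 7.22 on the VE+N-labelled, 7.47 and 7.92 on the VE-labelled and 8.71 and 8.80 on the N-labelled arrays, with no overlap between lines. It fell by 1.56 ± 0.149 in the VE+N-labelled (adjusted p = 0.000225) and 1.06 ± 0.149 in the VE-labelled line (adjusted p = 0.00223) against the N-labelled line, while VE+N minus VE was −0.50 ± 0.149 (adjusted p = 0.0789). Its paralog Scd2 read 11.40 and 11.40, 11.49 and 11.49 and 11.90 and 11.88 in the same order of lines, with smaller differences of −0.49 ± 0.0935 for VE+N minus N (adjusted p = 0.00817) and −0.40 ± 0.0935 for VE minus N (adjusted p = 0.0235). Both Scd2 calls were lost without either N-labelled array, and the second also without either VE-labelled array. Whether probes of the Scd1 and Scd2 sets also read the other gene was not examined.

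Elovl6, which lengthens palmitate, and Fads2, a desaturase of polyunsaturated fatty acids, each had 1 called difference, lower in the VE+N-labelled line. Elovl6 read 6.33 and 6.71 on the VE+N-labelled, 7.34 and 7.87 on the VE-labelled and 7.16 and 7.14 on the N-labelled arrays, with a called difference of −1.09 ± 0.189 for VE+N minus VE (adjusted p = 0.00903) and an uncalled one of −0.63 ± 0.189 for VE+N minus N (adjusted p = 0.0531). The call was lost without VE replicate 2, without VE+N replicate 1 and with the methods' analysis of variance, and the replicates were spread by 0.269 (SD) in the VE+N-labelled and 0.374 (SD) in the VE-labelled line. Fads2 read 9.62 and 9.47 on the VE+N-labelled, 9.93 and 9.93 on the VE-labelled and 9.93 and 9.90 on the N-labelled arrays, and its difference of −0.37 ± 0.100 for VE+N minus N (adjusted p = 0.0375) was lost in 7 of 17 alternatives. Fads1, the other desaturase of that pathway, was called in no comparison, with its largest difference at −0.23 ± 0.0939 (VE+N minus N, adjusted p = 0.143).

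**Figure D3:**
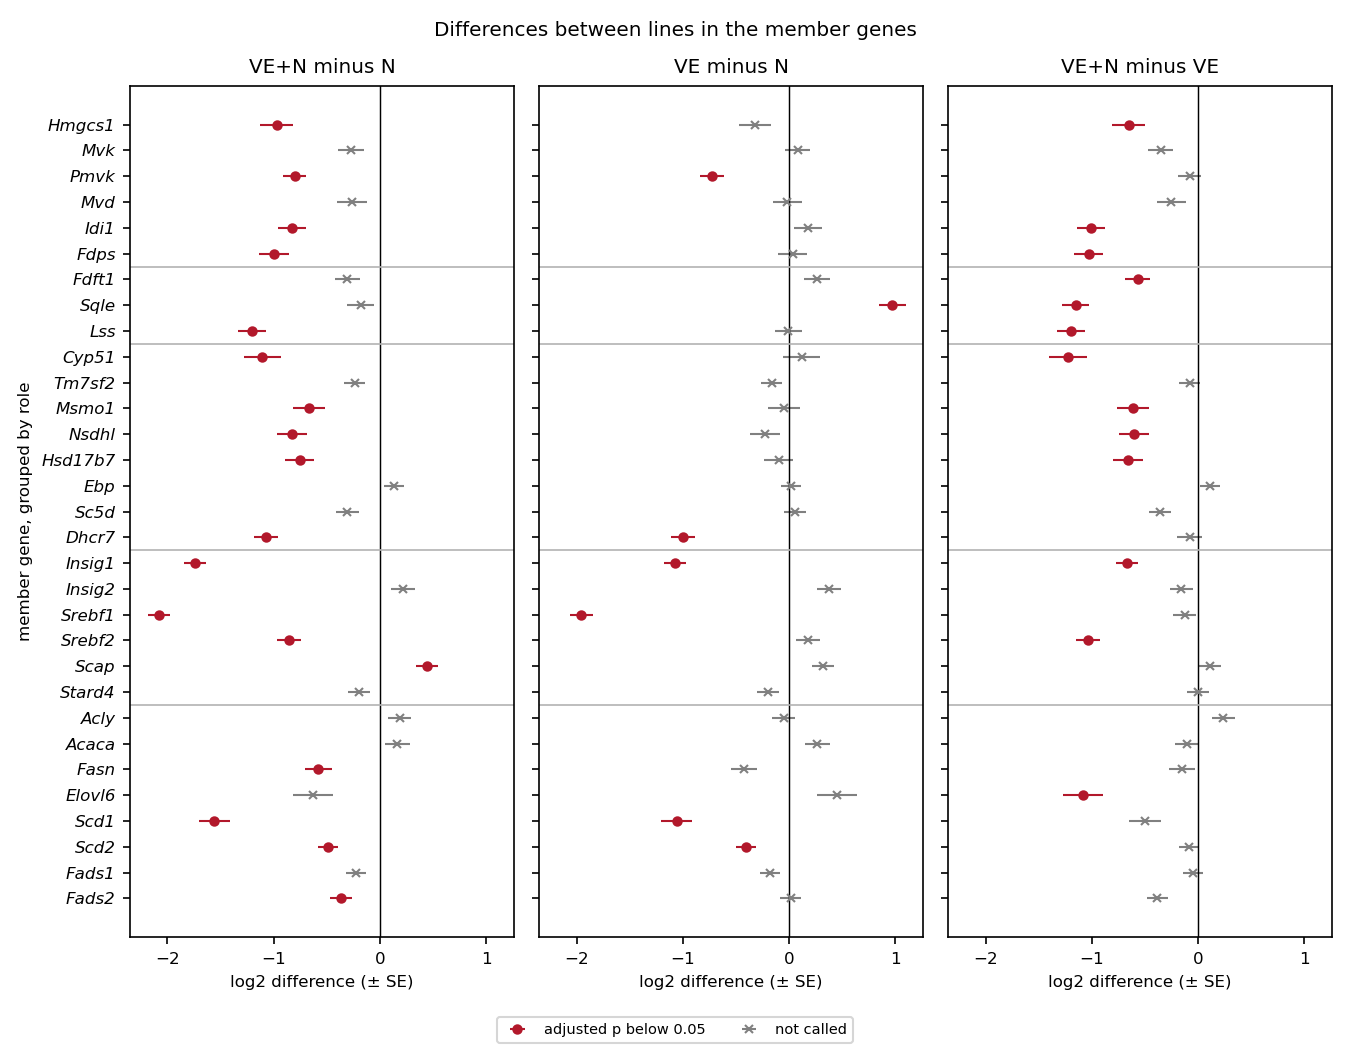
Log2 differences between lines for the 31 measured genes, with horizontal bars for the SE from limma over 6 arrays, filled circles for adjusted p below 0.05 and grey crosses for genes not called. Calls to the left of 0 number 17 for VE+N minus N, 6 for VE minus N and 13 for VE+N minus VE, and those to the right number 1, 1 and 0.

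The 2 VE-labelled arrays parted in the same direction over many of these genes. VE replicate 2 was above VE replicate 1 in 24 of 31 genes, with a median of 0.14, and in 49% of all genes, with a median of −0.0023. In the 17 measured sterol enzymes it was higher in 13, with a median of 0.29. In the VE+N-labelled line replicate 2 was above replicate 1 in 18 of 31 genes (median 0.05), and in the N-labelled line in 14 of 31 (median −0.02). Without VE replicate 1 the median VE minus N difference of the 31 genes was 0.08, and without VE replicate 2 it was −0.15.

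Genes around these pathways were examined from 5 further lists with 85 genes, of which 72 were measured, and they were called in both directions. For VE+N minus N 16 (22.2%) fell and 13 (18.1%) rose, beside 8.91% and 10.2% of all genes, with a median of −0.01. For VE minus N 12 (16.7%) fell and 14 (19.4%) rose, beside 6.99% and 8.46%, with a median of −0.06. For VE+N minus VE 10 (13.9%) fell and 5 (6.94%) rose, beside 5.84% and 4.29%, with a median of 0.06. Without the dimmest 50% of genes 4216, 3530 and 2597 of 9968 genes were called in either direction in these comparisons. The lists were not recounted in that fit.

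Other known SREBP targets were mixed: 6 of 15 fell and 2 rose for VE+N minus N, beside 8.91% and 10.2% of all genes. Tmem97, a sterol-regulated membrane protein, read 6.52 and 6.73 on the VE+N-labelled, 7.51 and 7.44 on the VE-labelled and 7.48 and 7.44 on the N-labelled arrays, low in the VE+N-labelled line alone as Srebf2 was (−0.84 ± 0.109 for VE+N minus VE, adjusted p = 0.00219). Slc25a1, which exports citrate for fatty acid synthesis, and Mid1ip1, an activator of acetyl-CoA carboxylase, fell by 1.03 ± 0.101 (adjusted p = 0.000256) and 1.06 ± 0.104 (adjusted p = 0.00026) in the VE+N-labelled against the N-labelled line. Acss2, the cytosolic acetyl-CoA synthetase, fell by 0.48 ± 0.112 in the VE+N-labelled against the VE-labelled line (adjusted p = 0.0327). Thrsp and Fabp5 went the other way for VE+N minus N: Thrsp, a lipogenic protein related to Mid1ip1, rose by 2.18 ± 0.120 (adjusted p = 1.06e-05). Fabp5, a fatty acid binding protein, rose by 1.68 ± 0.149 (adjusted p = 0.000153). Thrsp also rose for VE+N minus VE (1.41 ± 0.120, adjusted p = 0.000301). Fabp5 was highest in the VE-labelled line and fell for VE+N minus VE (−0.74 ± 0.149, adjusted p = 0.0175).

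Of the other sterol and isoprenoid enzymes 2 of 8 fell and 1 rose for VE+N minus N, beside 8.91% and 10.2% of all genes. Nus1, a subunit of the enzyme that makes dolichol precursors, read 9.24 and 9.44 on the VE+N-labelled, 9.20 and 9.24 on the VE-labelled and 10.64 and 10.72 on the N-labelled arrays, and fell by 1.34 ± 0.108 (adjusted p = 9.05e-05). Aacs, which returns ketone bodies to lipid synthesis, fell by 0.95 ± 0.105 (adjusted p = 0.000501), and Cyb5r3, a reductase, rose by 0.39 ± 0.0951 (adjusted p = 0.0235). Lbr, a nuclear envelope protein that also reduces sterols, rose for VE minus N (0.50 ± 0.0969, adjusted p = 0.0103). Among genes of SREBP cleavage and of the turnover of sterol sensors 1 of 12 fell and 4 rose for VE+N minus N. The shares of all genes were 8.91% lower and 10.2% higher. Mbtps1, the first protease that cuts SREBPs, rose by 0.66 ± 0.0978 (adjusted p = 0.00224), Rnf139, a ubiquitin ligase, by 0.67 ± 0.0984 (adjusted p = 0.00215), and Nfyb, a subunit of NF-Y, by 1.14 ± 0.137 (adjusted p = 0.000749). Nfya, another subunit of NF-Y, was the member of that list that fell (−0.43 ± 0.0960, adjusted p = 0.0165). Rnf145, a ubiquitin ligase that responds to sterols, fell for VE minus N (−0.52 ± 0.103, adjusted p = 0.0118), and Ube2g2, a ubiquitin-conjugating enzyme, rose for VE+N minus N (0.48 ± 0.101, adjusted p = 0.0123).

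Genes of sterol efflux, uptake and storage went both ways. For VE+N minus N 3 of 17 were lower and 3 higher, beside 8.91% and 10.2% of all genes. Scarb1, the receptor for high-density lipoprotein, read 8.04 and 8.04 on the VE+N-labelled, 9.06 and 8.99 on the VE-labelled and 9.67 and 9.64 on the N-labelled arrays. The lines did not overlap, and Scarb1 fell by 1.61 ± 0.0952 (VE+N, adjusted p = 1.6e-05) and 0.63 ± 0.0952 (VE, adjusted p = 0.00317) against the N-labelled line. Abca1, the cholesterol exporter and a target of the sterol-sensing liver X receptors, read 7.78 and 8.05 on the VE+N-labelled, 7.84 and 7.87 on the VE-labelled and 6.89 and 6.93 on the N-labelled arrays. It was higher in both VE-cadherin-labelled lines, by 1.01 ± 0.115 (VE+N) and 0.95 ± 0.115 (VE), with adjusted p = 0.000592 and 0.00107. Lipa, the lysosomal lipase, and Osbpl5, a sterol transfer protein, rose by 0.81 ± 0.0986 (adjusted p = 0.0008) and 0.96 ± 0.0961 (adjusted p = 0.000297) for VE+N minus N. Stard3, also in this list, fell for VE minus N (−0.48 ± 0.0976, adjusted p = 0.0124) and for VE+N minus N (−0.35 ± 0.0976, adjusted p = 0.04). Mylip, another liver X receptor target, was called in the VE-labelled line (0.42 ± 0.111, adjusted p = 0.0403) and not in the VE+N-labelled line (0.37 ± 0.111, adjusted p = 0.0516), each against the N-labelled line.

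In the remaining list, of fatty acid elongation and desaturation, 4 of 20 genes fell and 3 rose for VE+N minus N. The shares of all genes were 8.91% lower and 10.2% higher. Hsd17b12, a reductase of the elongation cycle, fell by 1.45 ± 0.107 (adjusted p = 5.67e-05) and Fads3, a desaturase, rose by 1.29 ± 0.108 (adjusted p = 0.000112). Acacb, the mitochondrial acetyl-CoA carboxylase, rose by 0.82 ± 0.110 (adjusted p = 0.00136), and Acsl4, a fatty acyl-CoA ligase, fell by 0.63 ± 0.137 (adjusted p = 0.0148). For VE+N minus VE 5 of 20 fell and 2 rose, beside 5.84% and 4.29% of all genes. Elovl4, an elongase of very long chains, was at −0.98 ± 0.111 (adjusted p = 0.00123). Prkaa2, a catalytic subunit of the AMP-activated kinase, was at −0.82 ± 0.144 (adjusted p = 0.00967). In that comparison Hacd2, a dehydratase of the elongation cycle, was at −0.58 ± 0.0981 (adjusted p = 0.00783) and Elovl7, another elongase, at 0.67 ± 0.121 (adjusted p = 0.0106).

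**Figure D4:**
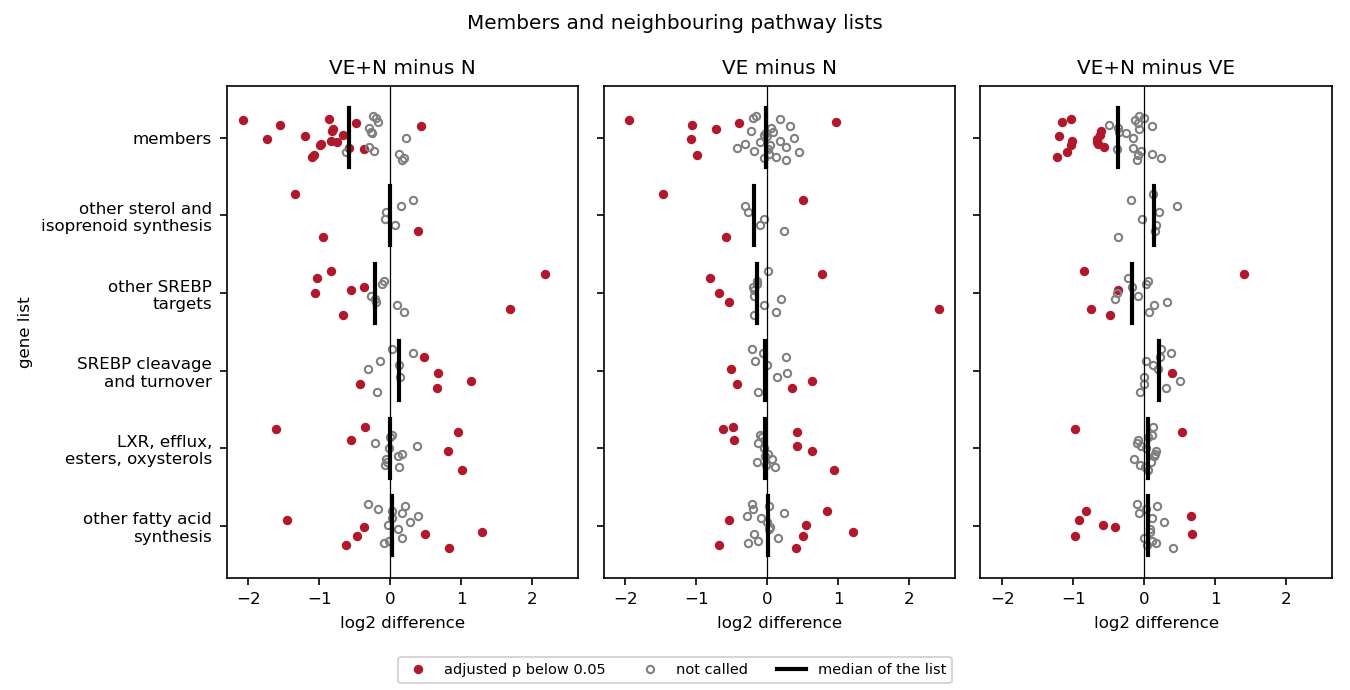
Log2 differences of single genes (points, filled where adjusted p is below 0.05) in the 31 measured members and the 5 neighbouring lists, with a black bar at each list's median. The members' median is −0.58 for VE+N minus N and −0.36 for VE+N minus VE, while the medians of the 5 lists lie between −0.21 and 0.21 in the 3 comparisons.

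Markers of other cell types and of dividing cells also differed between the lines. Of all genes 8.91% fell and 10.2% rose for VE+N minus N, and 6.99% and 8.46% for VE minus N. For VE+N minus VE 5.84% fell and 4.29% rose. All 9 measured cell cycle markers rose in the VE-labelled against the N-labelled line and fell in the VE+N-labelled against the VE-labelled line, and their summed linear signal was 1694 to 1998 on the VE+N-labelled, 4512 to 4611 on the VE-labelled and 1812 to 1884 on the N-labelled arrays. Of 8 fibroblast and mesenchymal markers 7 rose and 1 fell in the VE-labelled against the N-labelled line, and 8 fell in the VE+N-labelled against the VE-labelled line, with summed signals of 229.9 to 280, 2928 to 3210 and 634.5 to 675.5 in the same order of lines. For VE+N minus N 4 of the 8 fell (Col3a1, Dcn, Postn and Fap), with a median of −0.83 over the list. Mural markers gave 5 of 8 lower for VE+N minus N, Pdgfrb (−4.85 ± 0.140) and Acta2 (−2.27 ± 0.158) among them, with 0 (VE+N), 2 (VE) and 3 (N) of 8 above the median gene. Of the 10 endothelial markers 3 rose for VE+N minus N, 4 rose for VE+N minus VE and 2, Pecam1 and Emcn, fell for VE minus N. Of 8 pluripotent stem cell markers those above the median gene numbered 1 (VE+N), 1 (VE) and 2 (N). Only Klf4 was called, higher for VE+N minus N (0.83 ± 0.115, adjusted p = 0.00164) and for VE minus N (0.67 ± 0.115, adjusted p = 0.00583). Among 7 haematopoietic markers 1, Cd68, lay above the median gene in each line, and it fell in all 3 comparisons (−2.88 ± 0.138 for VE+N minus N, −1.57 ± 0.138 for VE minus N and −1.31 ± 0.138 for VE+N minus VE). Of 8 hepatocyte and adipocyte markers 0 lay above the median gene. The part of these differences in the results above was not tested.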

How the data were processed

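Each RNA sample of the 3 lines was hybridised to 1 Affymetrix array of the Mouse Gene 1.0 ST type. The deposited values are log2 signals per probe set, which the authors made with the RMA algorithm in Partek Genomics Suite 6.3, per the submitters' processing notes and the labels' protocols. RMA makes the arrays' distributions alike, so a shift of most genes in 1 direction would not be seen. The annotation behind the probe sets' genes and its genome build are not given in the sources used here.

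Of 35556 probe sets, 21789 carried 1 gene symbol, 1621 several and 12146 none in GEO's platform annotation. Symbols were updated through Entrez identifiers or accessions (88 were kept as annotated), and 1 probe set per gene was taken, the brightest over the 6 arrays, which left 19936 genes. Line means were fitted over all 6 arrays with limma 3.58.1 in R 4.3.3 (4.89 prior on top of 3 residual degrees of freedom). Adjustment was by Benjamini-Hochberg over all genes, and a gene was called at an adjusted p below 0.05. The fit was tested on simulated data.

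The members and lists were chosen with earlier results of these data known. All members are named: those called at least once, and the regulators, with every array's value. In the other lists up to 4 called genes with the largest change per comparison are named, with Abca1 and Mylip in any case. Acat2 and 13 genes of the other lists were not analysed here. The 17 alternatives covered normalization, filters, probe set choice, array weights, the prior and the replicate block. They also covered the arrays fitted, each array left out and the methods' analysis of variance. A 2-fold threshold was applied to the main fit and is not among the 17.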

Additional observations from a re-analysis of the deposited data

How the results depend on the processing

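In 17 alternatives no called member difference changed sign, but many of them leave the line means as they are, which fixes the sign in advance. Among these were the analysis of variance, the trended prior, the filters, the replicate block and the 4-array fit. Another was leaving out an array of the line not compared. Probe set choice could change only the 3 members with 2 probe sets. Of the calls, 7 of 18 for VE+N minus N, 3 of 7 for VE minus N and 0 of 13 for VE+N minus VE held under all 17, which do not include the 2-fold threshold. Of the 28 calls lost somewhere 26 were lost under the methods' analysis of variance, 15 of these under it alone, and 13 with an array left out. With the analysis of variance the members lower and higher numbered 9 and 0 (VE+N minus N) and 0 lower (VE+N minus VE), 0 were higher for VE minus N, 5 differed over the 3 lines, and 1867, 1276 and 311 genes were called in all for VE+N minus N, VE minus N and VE+N minus VE, against 3802, 3079 and 2020 with limma. Requiring a 2-fold change as well left 6, 3 and 7 members lower, 0 higher for VE+N minus N, 0 higher for VE minus N, and 918, 760 and 502 genes. With 1 array left out at a time the members lower numbered 13 to 17, 5 to 7 and 6 to 13, those higher 0 to 1 for VE+N minus N and 1 to 2 for VE minus N, those differing over the 3 lines 15 to 18, and all genes called 2243 to 3800, 1688 to 3356 and 966 to 2049. In these fits with 1 array left out the median member difference was −0.148 to 0.0811 for VE minus N, positive only without VE replicate 1. For VE+N minus VE it was −0.46 to −0.29. Members higher for VE minus N numbered 2 with only the 4 arrays of both lines or a second quantile normalization, and 3 with array weights, a trended robust prior, or without the dimmest 25% or 50% of genes. Median centring gave a median member difference of −0.12 for VE minus N and −0.27 for VE+N minus VE. With the replicate number as a block the members lower were 18, 6 and 13, those higher 1, 2 and 0, and the genes called 3864, 3056 and 2055. Whether equal replicate numbers mark arrays handled together is not stated in the sources used here. Deviations of same-numbered arrays correlated at 0.12 (VE+N with N), −0.005 (VE with N) and 0.07 (VE+N with VE) across genes.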

Other observations

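Both other members with a second probe set kept their order of lines in it. The dimmer Fdft1 probe set read 8.20 and 8.14 on the VE+N-labelled, 8.67 and 8.91 on the VE-labelled and 8.39 and 8.50 on the N-labelled arrays, again lowest in the VE+N-labelled and highest in the VE-labelled line. The dimmer Acaca probe set read 6.45 and 6.89 on the VE+N-labelled, 6.73 and 6.79 on the VE-labelled and 6.45 and 6.56 on the N-labelled arrays, and its VE+N-labelled replicates were farther apart than its line means.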
